A study of Mus musculus with 18 samples.

Results

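The genes described here are 9 components of the Sonic hedgehog pathway, Ptch1, Hhip, Boc, Cdon, Smo, Sufu, Gli1, Gli2 and Gli3, chosen by name for their place in the pathway. Each of the 9 was found among the 27997 genes of the deposited table. RNA was measured in 18 libraries of mouse cells, from 3 culture lines that were each grown as neural stem cells (NSCs) and differentiated into astrocytes, with 3 replicates per group. The tdTomato line and the EYFP line came from spinal cord. Their mice carried Clec9a Cre together with Rosa LSLtdTomato (DNGR-1 +/- Tom+/- in the labels) or with Rosa LSLEYFP (DNGR-1 +/- EYFP+/-). Clec9a encodes DNGR-1, and Cre made from that locus switches on the fluorescent reporter for good, so that the cells and their offspring are marked, or traced. The hippocampal line came from Glast Cre Huwe1 fl Rosa LSLEYFP mice and is DNGR-1+/+ in the labels. NSCs were kept for 4 days with EGF and bFGF, each at 20 ng/ml. For astrocytes that medium was replaced by one with BMP4 at 20 ng/ml, and the cells were collected after 6 days. The study's methods give the age of its mice as a range in weeks for experiments in general, and the sections on these cultures give no age of their own. Each line is 1 culture line. Its replicates were cultures from passages 10, 11 and 12 of that line, so the p-values below measure the spread between cultures and not between animals. Medium and days in culture changed together with fate, and tissue, genotype and Cre driver differed together between the traced and the hippocampal lines. The parts of these differences cannot be told apart.

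Hedgehog ligands are secreted proteins that bind the receptor Ptch1, with Boc, Cdon and Gas1 as co-receptors and Hhip as a decoy that takes ligand up. Unbound Ptch1 holds Smo inactive. Once ligand is bound, Smo gathers in the primary cilium, and the Gli transcription factors, otherwise restrained by Sufu and cut into repressors, become activators. Gli1, Ptch1 and Hhip are themselves targets that the active pathway switches on, and in the developing spinal cord graded Sonic hedgehog sets the ventral progenitor domains marked by Nkx2-2, Nkx6-1 and Olig2. In the adult brain the pathway is known for its part in keeping NSCs.

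Values are on the log2 scale of the deposited table, where a difference of 1 is a 2-fold difference of the deposited values. The transform was not named, and from the shape of the values weakly expressed genes appear to be drawn towards their mean. Differences were tested with limma across genes whose value, taken out of the log, was 10 or more in 3 or more of the compared libraries, and a difference is called where the Benjamini-Hochberg adjusted p was under 0.05. Astrocytes differed from NSCs throughout the transcriptome. Of 8 proliferation genes 8 were lower in astrocytes, with a median change of -5.32, and their summed level (log2 of the sum of the values out of the log) ran from 14.9 to 15.3 in NSCs and from 11.5 to 11.7 in astrocytes. Of 8 astrocyte genes 7 were higher, and their summed level ran from 14.4 to 15.5 in NSCs and from 17.0 to 17.8 in astrocytes. Of 5 ependymal genes 3 were in the table. Foxj1 had group means of 9.54 to 10.35 in NSCs and 11.15 to 12.20 in astrocytes, whereas Dnah12 lay under the filter in every library and Ccdc153 in all but the hippocampal astrocytes (mean of 5.86). The 5 microglia and macrophage genes in the table did not pass the filter, although P2ry12 reached 3.57 in hippocampal astrocytes, and their summed level ran from 2.26 to 2.74 in NSCs and from 2.71 to 3.88 in astrocytes. Of the pericyte and fibroblast genes Rgs5 had group means of 2.06 to 2.62 in NSCs and 5.83 to 6.00 in astrocytes and passed the filter through the astrocytes alone, so no test of it is given, and the summed level of that list was 4.98 to 5.39 in NSCs and 6.14 to 7.0 in astrocytes. The neural stem cell list gave 4 higher and 2 lower of 6 genes. The summed level of the oligodendrocyte lineage list was 15.2 to 15.6 in NSCs and 13.3 to 14.8 in astrocytes, that of the neuron list 7.27 to 8.15 and 8.43 to 8.87, and that of the endothelium list 3.49 to 4.10 and 2.40 to 3.55. The part of these lists in the changes below was not tested. In bulk RNA, fewer cells of a type and less RNA per cell cannot be told apart. Huwe1, floxed in the hippocampal line, had group means of 13.06 to 13.32 and did not pass the test between origins (difference of 0.04 in NSCs and 0.02 in astrocytes).

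The sequences next to the starts of Ptch1, Hhip and Gli2 are shown because these genes are among those that differed below, and because Ptch1 and Hhip are Gli targets whose promoters can be searched for the Gli consensus. Each is the run of 250 bases before an annotated start in RefSeq, build GRCm38.p6, written 5′ to 3′ on the strand of the gene. They lie at chr13:63565736-63565985 (minus strand) for Ptch1, chr8:80058009-80058258 (minus strand) for Hhip and chr1:119053620-119053869 (minus strand) for Gli2. The Ptch1 run precedes a start inside the gene, which extends to position 63573598, and the runs of Gli3 and Cdon, not shown, also lie inside their genes. Capitals mark GGCGCC, a GC-rich element bound by Smad proteins.
Ptch1: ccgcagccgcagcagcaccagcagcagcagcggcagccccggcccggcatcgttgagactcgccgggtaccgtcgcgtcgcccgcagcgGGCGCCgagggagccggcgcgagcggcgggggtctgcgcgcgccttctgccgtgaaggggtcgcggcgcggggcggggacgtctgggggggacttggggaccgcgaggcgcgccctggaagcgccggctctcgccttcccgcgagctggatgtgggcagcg
Hhip: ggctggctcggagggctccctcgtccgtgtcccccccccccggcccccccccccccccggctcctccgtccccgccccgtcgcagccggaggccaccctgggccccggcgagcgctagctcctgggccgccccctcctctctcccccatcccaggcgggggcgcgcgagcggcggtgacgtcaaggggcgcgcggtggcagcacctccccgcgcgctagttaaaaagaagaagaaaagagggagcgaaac
Gli2: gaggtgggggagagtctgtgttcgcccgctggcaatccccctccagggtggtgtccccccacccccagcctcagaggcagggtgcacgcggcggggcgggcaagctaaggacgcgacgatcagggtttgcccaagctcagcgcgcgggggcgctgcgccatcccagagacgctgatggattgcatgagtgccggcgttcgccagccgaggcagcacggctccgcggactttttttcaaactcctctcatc

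Of the 9 genes 7 had such a run in the table of starts, all but Gli1 and Boc. GGCGCC was in 2 of the 7, Ptch1 and Sufu, against 9.59% of all 32851 runs of this length. The Gli consensus GACCACCCA was in 0 of the 7 (0.225% of all runs), and its shorter core CCACCCA, which the consensus contains, was in 0 of the 7 (8.11% of all runs), on either strand. These letters are therefore not in these windows, which covers no other part of the genes. The runs differed in base composition. Those of Ptch1, Gli3, Hhip and Gli2 held 41, 34, 28 and 22 CG dinucleotides, Smo and Sufu 15 and 8, and Cdon 1, against a median of 6 over all runs. GC content ran from 42.8% in Cdon to 78.4% in Ptch1, with a median of 52.4% over all runs.

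The first comparison asked how the pathway genes changed when NSCs became astrocytes. Hhip and Ptch1, both ligand-binding targets of the pathway, were lower in astrocytes, and so were the co-receptor Cdon and the Gli inhibitor Sufu, while the co-receptor Boc and the transducer Smo were higher. Gli2 and Gli3 gave no call over all lines, and both rose in the tdTomato line and fell in the hippocampal line. Across the 3 lines, 8 of the 9 genes passed the filter, and 2 rose and 4 fell (Hhip, which passed the filter through its NSC libraries alone, among them), where 81.9% of all 15448 genes tested were called (42.1% higher and 39.8% lower). The share of the pathway genes called was not above that of all genes, and their median change was -0.23 against 0.02 for all genes tested. In the tdTomato line 4 rose and 4 fell, where 79.3% of all genes were called (39.9% higher and 39.5% lower). In the EYFP line 2 rose and 5 fell, where 74.9% were called (37.5% and 37.4%). In the hippocampal line 1 rose and 6 fell, where 77.3% were called (39.2% and 38.2%). Hhip is counted among the falls of each line and in the medians that follow. It passed the filter in each line through its NSC libraries alone, so its fall was built in. The median changes of the 8 genes in these lines were 0.08, -0.29 and -0.43, and those of all genes tested lay between 0.001 and 0.01.

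**Figure D1:**
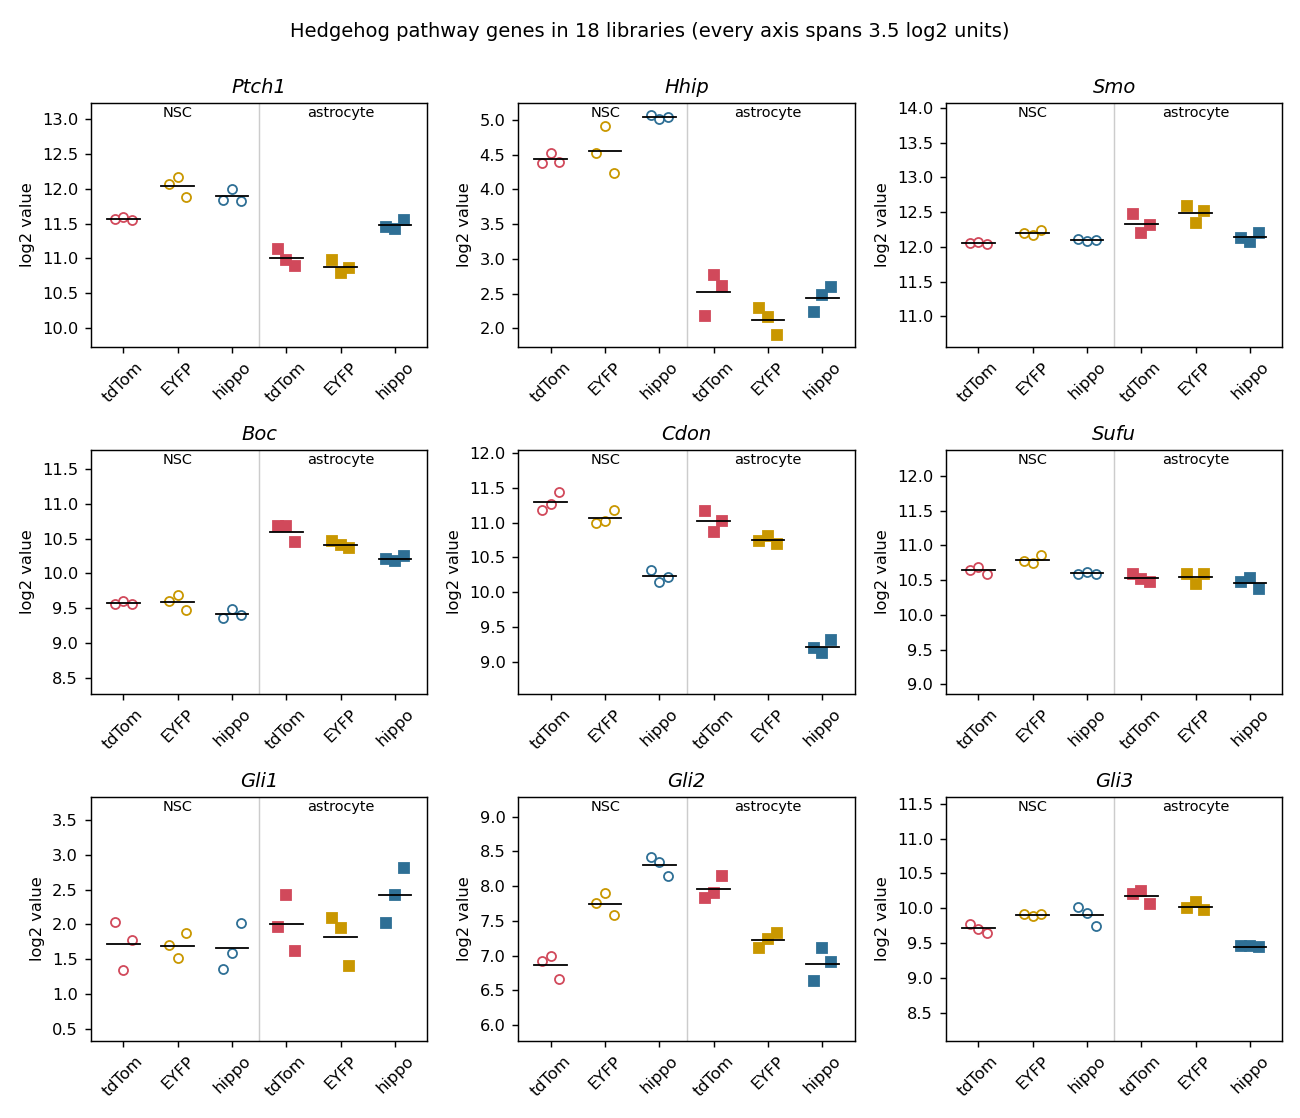
Deposited log2 value (y axis, spanning 3.5 log2 units in every panel) of the 9 genes in each of 18 libraries, by group (x axis: tdTomato, EYFP and hippocampal lines as NSCs, open circles, and as astrocytes, filled squares), with a black line at each group mean of 3. Hhip falls from 4.24 to 5.07 in NSCs to 1.90 to 2.77 in astrocytes and Boc rises from 9.36 to 9.69 to 10.18 to 10.68, while the Gli2 groups change order between the fates.

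Hhip (ENSMUSG00000064325, chr8:79965851-80058006) binds hedgehog ligands at the cell surface and limits their spread. Its values were 4.39, 4.53 and 4.39 in tdTomato NSCs, 4.53, 4.91 and 4.24 in EYFP NSCs and 5.07, 5.02 and 5.04 in hippocampal NSCs. In astrocytes they were 2.18, 2.77 and 2.61 in the tdTomato line, 2.29, 2.16 and 1.90 in the EYFP line and 2.24, 2.49 and 2.59 in the hippocampal line. The 9 NSC libraries lay above the 9 astrocyte libraries without overlap. Hhip passed the filter through its NSC libraries alone, so its changes were read from the fits with no filter on values, over all 27997 genes. There Hhip fell by 2.32 ± 0.14 (SE) over all lines (adjusted p = 5.1e-11), and by 1.91, 2.44 and 2.60 in the tdTomato, EYFP and hippocampal lines (adjusted p = 0.00076, 0.00040 and 7.2e-05). These falls did not pass the test for a difference between origins (0.43 ± 0.26, adjusted p = 0.28) or between the traced lines (0.52 ± 0.30, adjusted p = 0.39). The astrocyte values lay in the range where the deposited scale appears to draw values together, which can understate the fall. With the filter and a pseudocount of 10 the change over all lines was -1.24, and the difference between origins was then called (0.36, adjusted p = 0.029). With any 1 of the 3 NSC libraries left out, Hhip no longer met the filter within a line.

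Ptch1 (ENSMUSG00000021466, chr13:63508328-63573598), the receptor that holds Smo inactive, also fell. Its values were 11.57, 11.59 and 11.55 in tdTomato NSCs, 12.07, 12.18 and 11.88 in EYFP NSCs and 11.85, 12.01 and 11.83 in hippocampal NSCs. In astrocytes they were 11.13, 10.98 and 10.89 in the tdTomato line, 10.98, 10.79 and 10.86 in the EYFP line and 11.46, 11.43 and 11.55 in the hippocampal line. Within each line the fates did not overlap, although the hippocampal astrocytes reached the lowest tdTomato NSCs. For the tdTomato, EYFP and hippocampal lines Ptch1 fell by 0.57 ± 0.06 (SE), 1.17 ± 0.08 and 0.42 ± 0.06 (adjusted p = 1.5e-05, 7e-07 and 7.4e-05), and over all lines by 0.72 ± 0.09 (adjusted p = 8.1e-07). The EYFP line fell further than the tdTomato line by 0.60 ± 0.10 (adjusted p = 0.0012), and the traced lines together fell further than the hippocampal line by a difference of -0.45 ± 0.09 (adjusted p = 0.00053). Both tests of a difference kept their call with any 1 library left out.

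The co-receptors Boc and Cdon, related cell surface proteins that present ligand to Ptch1, moved in opposite directions. Boc (ENSMUSG00000022687, chr16:44485049-44558897) had values of 9.56, 9.60 and 9.56 in tdTomato NSCs, 9.60, 9.69 and 9.48 in EYFP NSCs and 9.36, 9.48 and 9.41 in hippocampal NSCs. In astrocytes its values were 10.68, 10.68 and 10.45 in the tdTomato line, 10.47, 10.41 and 10.36 in the EYFP line and 10.20, 10.18 and 10.24 in the hippocampal line. Each astrocyte library lay above each NSC library. Boc rose by 0.88 ± 0.04 (SE) over all lines (adjusted p = 2.5e-12), by 1.03 in the tdTomato line, 0.82 in the EYFP line and 0.79 in the hippocampal line. The rise did not pass the test for a difference between origins (0.13 ± 0.08, adjusted p = 0.16) or between the traced lines (0.20 ± 0.09, adjusted p = 0.13). With median centring the difference between origins was called at 0.21 (adjusted p = 0.040), and with quantile normalization at 0.20 (adjusted p = 0.045). Without replicate 3 of the tdTomato astrocytes both differences were called, at 0.17 (adjusted p = 0.037) and 0.28 (adjusted p = 0.027), and without replicate 3 of the EYFP NSCs the second was called as well, at 0.26 (adjusted p = 0.047).

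Cdon (ENSMUSG00000038119, chr9:35421128-35507652) had values of 11.17, 11.26 and 11.45 in tdTomato NSCs, 11.00, 11.02 and 11.17 in EYFP NSCs and 10.32, 10.15 and 10.22 in hippocampal NSCs. In astrocytes they were 11.17, 10.86 and 11.02 in the tdTomato line, 10.73, 10.81 and 10.69 in the EYFP line and 9.19, 9.13 and 9.32 in the hippocampal line. Both hippocampal groups lay below every traced library, and the hippocampal astrocytes lay lowest. Cdon fell by 1.02 ± 0.07 (SE) in the hippocampal line (adjusted p = 3.1e-07) and by 0.32 ± 0.06 in the EYFP line (adjusted p = 0.0008). In the tdTomato line it fell by 0.28 ± 0.09 (adjusted p = 0.015), a call that was lost without NSC replicate 3 (-0.20, adjusted p = 0.059) or without astrocyte replicate 2 (-0.20, adjusted p = 0.055) and with centring of the libraries on their median (-0.20, adjusted p = 0.060). That call was also lost with no filter on values (adjusted p = 0.092) and with no variance trend in limma (adjusted p = 0.0504). The fall was smaller in the traced lines than in the hippocampal line by 0.72 ± 0.10 (adjusted p = 1.1e-05), with any 1 library left out as well. Per kilobase of exons, which is the scale for comparing genes, Boc lay below Cdon in NSCs by -0.93 in the tdTomato line and -0.68 in the EYFP line and was level with it in hippocampal NSCs (-0.02). In astrocytes Boc lay above Cdon by 0.38, 0.46 and 1.79 in the same order, so the order of the pair turned in both traced lines.

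Smo and Sufu changed little. Smo (ENSMUSG00000001761, chr6:29735503-29761365), the membrane protein that carries the signal inward, ran from 12.03 to 12.24 in NSCs and from 12.07 to 12.59 in astrocytes. It rose by 0.27 ± 0.06 (SE) in the tdTomato line (adjusted p = 0.0032) and 0.28 ± 0.06 in the EYFP line (adjusted p = 0.0029), where the fates did not overlap, and changed by 0.04 ± 0.04 in the hippocampal line (adjusted p = 0.45). The traced lines rose more than the hippocampal line by 0.24 ± 0.08 (adjusted p = 0.015), and without replicate 2 of the hippocampal astrocytes this difference was 0.21 (adjusted p = 0.0501). Sufu (ENSMUSG00000025231, chr19:46396896-46488804), the inhibitor that binds Gli proteins in the cytoplasm, ran from 10.59 to 10.86 in NSCs and from 10.38 to 10.60 in astrocytes. It fell by 0.25 ± 0.05 in the EYFP line (adjusted p = 0.0020). The falls of 0.12 ± 0.05 in the tdTomato line (adjusted p = 0.048) and 0.14 ± 0.05 in the hippocampal line (adjusted p = 0.022) were near the threshold. In the tdTomato line the call was lost without NSC replicate 1 or 2 or astrocyte replicate 2 or 3 (-0.15 to -0.09 over the 6 libraries left out, adjusted p up to 0.18), and with median centring the change was -0.03 (adjusted p = 0.53). In the hippocampal line it was lost without NSC replicate 1 or 2 or astrocyte replicate 3 (-0.17 to -0.10, adjusted p up to 0.082). Per kilobase, Ptch1 lay below Smo in all 6 groups, by -1.82, -1.50 and -1.54 in tdTomato, EYFP and hippocampal NSCs and by -2.66, -2.94 and -1.99 in the astrocytes, so this gap was wider in the astrocytes of each line.

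**Figure D2:**
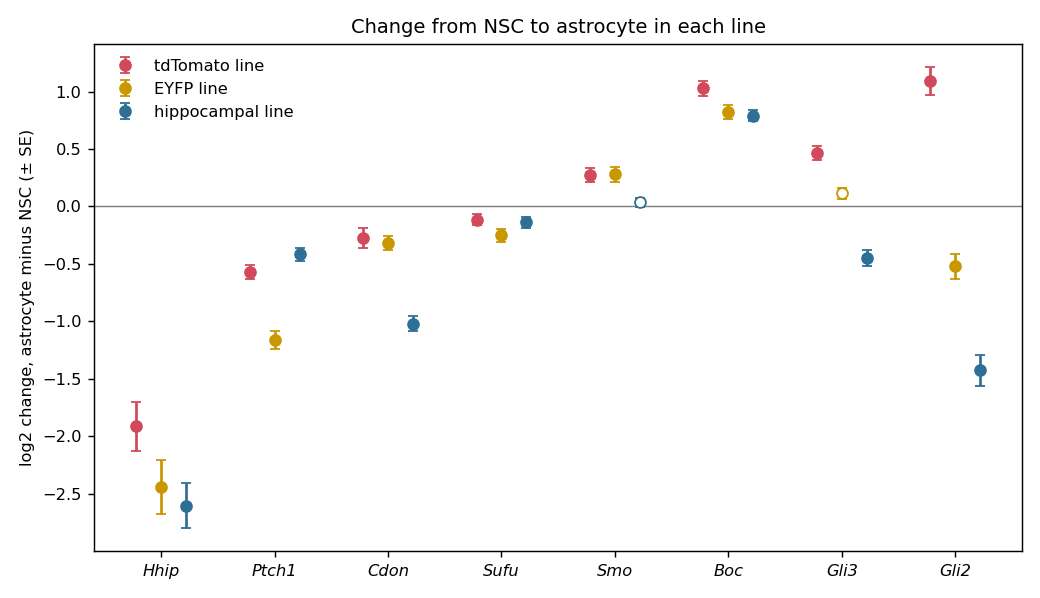
Log2 change from NSC to astrocyte (y axis) with its SE for the 8 genes tested (x axis) in each line (colours), filled where the adjusted p was under 0.05 and open where it was not. Hhip and Ptch1 fall and Boc rises in every line, and Gli2 runs from 1.09 in the tdTomato line to -1.43 in the hippocampal line. Hhip passed the filter in each line through its NSC libraries alone, so its fall was built in.

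Gli2, the main transcriptional activator of the pathway, rose in one traced line and fell in the other 2 lines. Gli2 (ENSMUSG00000048402, chr1:118834132-119053619) had values of 6.93, 7.0 and 6.66 in tdTomato NSCs and 7.83, 7.90 and 8.14 in tdTomato astrocytes. In the EYFP line it had 7.76, 7.90 and 7.58 in NSCs and 7.10, 7.24 and 7.32 in astrocytes. In the hippocampal line it had 8.42, 8.35 and 8.15 in NSCs and 6.63, 7.11 and 6.90 in astrocytes. The fates did not overlap in any line. Gli2 rose by 1.09 ± 0.12 (SE) in the tdTomato line (adjusted p = 2.3e-05), fell by 0.52 ± 0.11 in the EYFP line (adjusted p = 0.0018) and fell by 1.43 ± 0.13 in the hippocampal line (adjusted p = 4.5e-06). Over all lines these gave -0.29 ± 0.26 (adjusted p = 0.32). The change differed between the traced and hippocampal lines by 1.71 ± 0.16 (adjusted p = 1.3e-07) and between the tdTomato and EYFP lines by 1.62 ± 0.18 (adjusted p = 4.3e-05). The SE of the difference between origins comes from replicates within groups. It leaves out the spread between the traced lines, which moved in opposite directions. The order of the Gli2 group means was hippocampal NSCs (8.31 ± 0.14, SD), tdTomato astrocytes (7.96 ± 0.16), EYFP NSCs (7.75 ± 0.16), EYFP astrocytes (7.22 ± 0.11), hippocampal astrocytes (6.88 ± 0.24) and tdTomato NSCs (6.86 ± 0.17). Of these neighbours, tdTomato astrocytes and EYFP NSCs overlapped, as did hippocampal astrocytes with EYFP astrocytes and with tdTomato NSCs.

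Gli3 (ENSMUSG00000021318, chr13:15463235-15730026), mainly a repressor in its cut form, had values of 9.78, 9.71 and 9.64 in tdTomato NSCs and 10.21, 10.25 and 10.06 in tdTomato astrocytes. In the EYFP line it had 9.92, 9.89 and 9.91 in NSCs and 10.01, 10.09 and 9.98 in astrocytes. In the hippocampal line it had 10.01, 9.94 and 9.74 in NSCs and 9.45, 9.46 and 9.44 in astrocytes. The astrocytes lay above the NSCs in both traced lines and below them in the hippocampal line. Gli3 rose by 0.46 ± 0.06 (SE) in the tdTomato line (adjusted p = 8.1e-05) and fell by 0.45 ± 0.07 in the hippocampal line (adjusted p = 0.00018). In the EYFP line the change of 0.11 ± 0.05 did not pass (adjusted p = 0.064), and it did with median centring (0.17, adjusted p = 0.013). The difference between origins was 0.74 ± 0.08 (adjusted p = 4.3e-07) and that between the traced lines 0.35 ± 0.09 (adjusted p = 0.013). Per kilobase, Gli3 lay above Gli2 in every library. The gap went from 2.37 in NSCs to 1.74 in astrocytes in the tdTomato line, from 1.68 to 2.32 in the EYFP line and from 1.11 to 2.09 in the hippocampal line.

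Gli1 (ENSMUSG00000025407, chr10:127329882-127341974) is the target gene most often read as a sign of an active pathway. Its values ran from 1.35 to 2.81 over the 18 libraries, so it stayed under the filter in each of them, and 41.2% of all genes had a lower mean. Group means were 1.72 ± 0.35 (SD, n = 3), 1.70 ± 0.18 and 1.66 ± 0.34 in tdTomato, EYFP and hippocampal NSCs and 2.01 ± 0.40, 1.82 ± 0.36 and 2.42 ± 0.39 in the astrocytes. Groups next to each other in the order of these means overlapped throughout. The hippocampal NSCs (1.36, 1.59 and 2.03) did not overlap the astrocytes (2.03, 2.42 and 2.81), although the nearest values round to the same number, and in the traced lines the fates overlapped. Gli1 passed the filter in no comparison, and with no filter on values it passed the test in none. That fit gave a change of 0.39 ± 0.17 (SE) over all lines (adjusted p = 0.066), and of 0.29, 0.12 and 0.76 in the tdTomato, EYFP and hippocampal lines (adjusted p = 0.46, 0.71 and 0.089). Traced minus hippocampal libraries differed by 0.05 in NSCs and -0.51 in astrocytes (adjusted p = 0.90 and 0.20), and tdTomato minus EYFP libraries by 0.02 and 0.19 (adjusted p = 0.95 and 0.85). The change with fate differed by -0.56 between origins and 0.17 between the traced lines (adjusted p = 0.30 and 0.88). At this level the deposited scale appears to draw values together, which can understate a change. Per kilobase Gli1 lay lowest of the 9 genes with Hhip, at -0.66 to 0.10 against -1.06 to 1.86 for Hhip, and Smo lay highest at 9.56 to 9.99. Sufu, Ptch1, Boc and Cdon lay between 6.26 and 8.45, Gli3 between 6.19 and 6.91 and Gli2 between 4.08 and 5.53.

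The next comparison set the traced lines, 6 libraries, against the hippocampal line, 3 libraries, within each fate. In NSCs Cdon and Boc were higher and Gli2 and Hhip lower in the traced lines, 2 up and 2 down of 8 genes tested, where 19.4% of all genes were called (10.6% higher and 8.81% lower). Cdon was higher by 0.95 ± 0.09 (SE, adjusted p = 7.3e-05), with a mean of 11.18 against 10.23, and it stayed called with any 1 library left out. Gli2 was lower by a difference of -1.0 ± 0.27 (7.30 against 8.31, adjusted p = 0.026), and without any 1 of the 3 hippocampal NSC libraries the adjusted p was 0.066 to 0.10 with differences of -1.08 to -0.95. With no filter on values the calls of Gli2 (adjusted p = 0.062), Hhip (0.053) and Boc (0.068) were lost. With the replicate number as a block in the fit, that of Gli2 was lost (adjusted p = 0.055). Hhip was lower by a difference of -0.55 ± 0.15 (4.50 against 5.04, adjusted p = 0.032), and the call was lost without any 1 library of the tdTomato or hippocampal NSCs or without EYFP NSC replicate 3 (-0.56 to -0.49, adjusted p up to 0.11). Boc was higher by 0.16 ± 0.05 (9.58 against 9.42, adjusted p = 0.049), and its call was lost without any 1 of 8 of the 9 libraries, EYFP NSC replicate 3 being the exception (0.14 to 0.20, adjusted p up to 0.19), and with median centring or quantile normalization (adjusted p = 0.12 and 0.11) or no variance trend (adjusted p = 0.063). Ptch1, Smo, Gli3 and Sufu did not pass the test, with differences of -0.09, 0.03, -0.09 and 0.12. Of 8 proliferation genes 0 were called between origins in NSCs by limma and 1 had an unadjusted p under 0.05, with differences of -0.09 to 0.26.

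In astrocytes 5 genes were higher and 1 lower in the traced lines, of 7 tested, where 52.0% of all genes were called (24.1% higher and 27.9% lower). Cdon showed the largest difference of the 7, 1.67 ± 0.10 (SE, 10.88 against 9.21, adjusted p = 4e-07). Gli3 was higher by 0.65 ± 0.06 (10.10 against 9.45, adjusted p = 1.2e-05) and Boc by 0.30 ± 0.07 (10.51 against 10.21, adjusted p = 0.0064). Ptch1 was lower by a difference of -0.54 ± 0.07 (10.94 against 11.48, adjusted p = 8.8e-05). For these 4 genes the traced and hippocampal astrocytes did not overlap. Gli2 was higher by 0.71 ± 0.23 (7.59 against 6.88, adjusted p = 0.024), and Smo by 0.27 ± 0.08 (12.40 against 12.13, adjusted p = 0.016), both with overlap. The Gli2 call was lost without hippocampal astrocyte replicate 1 (0.58, adjusted p = 0.11) or 3 (0.72, adjusted p = 0.061) and with no filter on values (adjusted p = 0.054). The Smo call was lost without hippocampal astrocyte replicate 1 (0.27, adjusted p = 0.051) or 2 (0.24, adjusted p = 0.068). Sufu did not pass the test (0.08 ± 0.05, adjusted p = 0.22), and neither did Hhip with no filter on values (2.32 against 2.44, a difference of -0.12 ± 0.22, adjusted p = 0.75). In means over the traced lines, Gli2 thus lay below the hippocampal level in NSCs and above it in astrocytes. The tdTomato astrocytes lay highest (7.96), and the EYFP astrocytes (7.22) overlapped the hippocampal ones (6.88). Foxj1 was lower in the traced astrocytes than in the hippocampal ones (group means of 11.15 and 11.16 against 12.20), as was Ccdc153 in its means (2.92 and 2.71 against 5.86). Dnah12, the remaining ependymal gene, went the other way in its means but lay under the filter. The summed level of the oligodendrocyte lineage list was higher in tdTomato and EYFP astrocytes (14.5 to 14.8 and 14.3 to 14.4) than in hippocampal ones (13.3 to 13.4). That of the microglia and macrophage list was lower (3.01 to 3.13 and 2.71 to 3.08 against 3.62 to 3.88). The part of these genes in the differences was not tested.

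**Figure D3:**
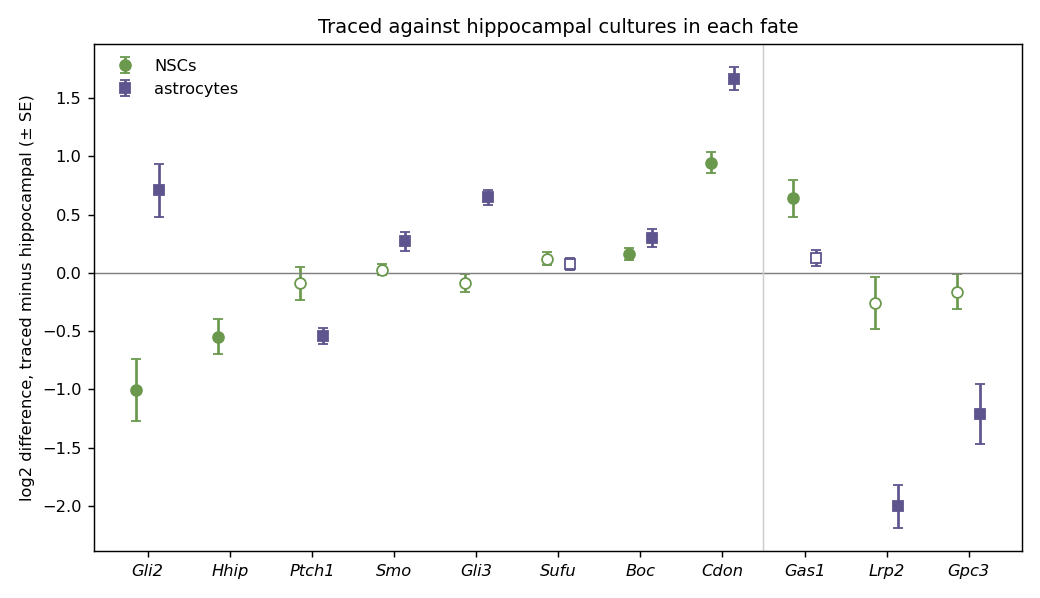
Log2 difference of traced minus hippocampal libraries (y axis) with its SE in NSCs (circles) and astrocytes (squares) for the pathway genes tested and, right of the line, 3 further ligand-binding proteins (x axis), filled where the adjusted p was under 0.05. Cdon is above 0 in both fates (0.95 and 1.67), Gli2 changes sign (-1.0 and 0.71), and Hhip has no astrocyte point because it did not pass the filter there.

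Change with fate differed between origins for 5 of the 8 genes tested, where 46.2% of all genes were called (20.3% with a higher and 25.9% with a lower change in the traced lines). These tests leave the spread between the traced lines out of the SE, whereas the tests of origin within a fate count it. Of the 5, Smo, Gli2, Gli3 and Cdon had the higher change and Ptch1 the lower, and for Sufu the difference was -0.05 ± 0.06 (SE, adjusted p = 0.57). Between the traced lines 3 of 8 differed, Ptch1, Gli2 and Gli3, each with the higher change in the tdTomato line, where 13.3% of all genes were called (6.36% higher and 6.98% lower). For Smo, Sufu and Cdon that difference was -0.007, 0.14 and 0.04 (adjusted p = 0.97, 0.21 and 0.86). The traced lines were also compared with each other at each fate. In NSCs 5 genes were lower and 1 higher in the tdTomato line than in the EYFP line, where 33.2% of all genes were called (15.2% lower and the rest higher). Gli2 differed by -0.88 ± 0.12 (SE, adjusted p = 0.0011) and Ptch1 by -0.47 ± 0.07 (adjusted p = 0.0017), and both calls stood with any 1 library left out. Smo (-0.15, adjusted p = 0.013), Gli3 (-0.20, adjusted p = 0.014), Sufu (-0.15, adjusted p = 0.031) and Cdon (0.23, adjusted p = 0.044) each lost the call without certain libraries. These were tdTomato NSC replicate 3 and EYFP NSC replicate 1 for Smo (-0.14 and -0.15, adjusted p up to 0.053), those and tdTomato NSC replicate 2 for Gli3 (-0.20 to -0.17, up to 0.057), every library but EYFP NSC replicate 2 for Sufu (-0.17 to -0.12, up to 0.11), and tdTomato NSC replicates 2 and 3 and EYFP NSC replicates 1 and 2 for Cdon (0.16 to 0.25, up to 0.14). The calls of Sufu and Cdon were also lost with no filter (adjusted p = 0.079 and 0.17) and with no variance trend (adjusted p = 0.071 and 0.10), and that of Smo with 6 group means in a single fit (adjusted p = 0.075). Hhip (-0.12, adjusted p = 0.66) and Boc (-0.01, adjusted p = 0.87) did not pass. In astrocytes 1 gene of 7 was called, Gli2, higher in the tdTomato line by 0.73 ± 0.11 (adjusted p = 0.0028), where 11.2% of all genes were called (5.60% higher and 5.63% lower). Cdon (0.27 ± 0.08, adjusted p = 0.0502) was called without tdTomato astrocyte replicate 2 (0.35, adjusted p = 0.018) and Boc (0.19 ± 0.07, adjusted p = 0.12) without tdTomato astrocyte replicate 3 (0.27, adjusted p = 0.028). Ptch1, Smo, Gli3 and Sufu did not pass, with differences of 0.13, -0.16, 0.15 and -0.01 (adjusted p = 0.33, 0.30, 0.17 and 0.92), and neither did Hhip with no filter on values (2.52 against 2.12, adjusted p = 0.51). With the replicate number as a block, Smo, Gli3, Boc and Cdon were also called (adjusted p = 0.010, 0.032, 0.013 and 0.014). Whether these genes differed between the traced astrocytes thus depended on the fit. Gli2 was thus lower in the tdTomato line as NSCs and higher in it as astrocytes.

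Among the ligands and the genes for their release, Shh was at -1.71 to -1.52 in the 18 libraries, close to the lowest value in the table (-2.15), and Ihh at 0.94 to 2.47, so neither passed the filter. Dhh, the desert hedgehog ligand, stood apart in the traced NSCs. It had 5.57, 5.74 and 5.34 in tdTomato NSCs, 3.28, 2.88 and 2.97 in EYFP NSCs and 1.06, 1.73 and 1.41 in hippocampal NSCs, and 1.00 to 2.21 in the 9 astrocyte libraries. The 3 groups of NSCs did not overlap. Dhh passed the filter through the tdTomato NSCs alone, where it was high, so no test of it is given. Over all lines 4 of the 6 genes of this list passed the filter, Dhh, the ligand acyltransferase Hhat, the release factor Scube2 and the ligand exporter Disp1, with a median change of -1.40 against 0.02 for all genes tested. Scube2 and Hhat also passed it mainly through NSC libraries, so neither that median nor a count of genes that fell is independent of the filter. Disp1 fell by 0.19 ± 0.05 (SE), where 39.8% of all genes were lower. The group means of Hhat were 3.36, 4.85 and 4.30 in tdTomato, EYFP and hippocampal NSCs and 2.99, 3.11 and 3.20 in the astrocytes, and those of Scube2 were 3.85, 4.41 and 5.0 and then 3.20, 2.54 and 2.32.

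Of the other receptors and ligand-binding proteins, Gas1, a co-receptor of Ptch1, had group means of 12.64, 12.11 and 11.73 in tdTomato, EYFP and hippocampal NSCs and 11.93, 11.98 and 11.82 in the astrocytes. It was higher in traced than in hippocampal NSCs by 0.64 ± 0.16 (SE, adjusted p = 0.019). Lrp2, an endocytic receptor for hedgehog ligand, fell by 1.39 ± 0.12 in the tdTomato line and 1.91 ± 0.14 in the EYFP line (adjusted p = 5.4e-06 and 9.5e-07) and changed by 0.09 ± 0.20 in the hippocampal line (adjusted p = 0.68). Its fall differed between origins by -1.75 ± 0.21 (adjusted p = 3.3e-06), and in astrocytes the traced lines lay below the hippocampal line by -2.0 ± 0.18 (adjusted p = 8.5e-06). Gpc3, a glypican that competes with Ptch1 for ligand, fell by 1.37 and 0.90 in the traced lines and changed by -0.08 in the hippocampal line, and its change differed between origins by -1.05 ± 0.28 (adjusted p = 0.00565). Over all lines these 3 genes fell, with a median of -0.78, where 39.8% of all genes were lower. In the hippocampal line 0 of 3 were called by limma at either the adjusted threshold or an unadjusted p under 0.05, where 77.3% of all genes were called.

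Of 14 known targets other than the 9 genes, 13 were in the table and 12 were tested over all lines, of which 10 fell and 1 rose, with a median of -1.25, where 39.8% of all genes were lower and 42.1% higher. Within the hippocampal line 6 of 10 tested fell and 4 gave no call, where 38.2% of all genes were lower. The cell cycle genes Ccnd1 (-3.22 ± 0.15, SE), Cdk6 (-2.82 ± 0.21) and Ccnd2 (-1.80 ± 0.09) fell, as did the ventral patterning genes Nkx2-2 (-2.33 ± 0.12) and Olig2 (-2.01 ± 0.08). Foxa2, counted among the 10, passed the filter through the tdTomato NSCs alone (3.84 to 4.18, against at most 3.11 in the other groups), so a fall was built in for it. These cell cycle genes have other inputs than the hedgehog pathway, and the proliferation genes given above fell in the same libraries. The summed level of the oligodendrocyte lineage list, given above, was also lower in the astrocytes. Its part in the fall of Nkx2-2 and Olig2 was not tested. Nkx6-1, which marks ventral spinal cord progenitors, differed mainly by origin. Its group means were 9.03 and 8.75 in the traced NSCs and 4.25 in hippocampal NSCs, and 9.74, 8.85 and 4.38 in the astrocytes. The difference between origins was 4.65 ± 0.10 in NSCs and 4.91 ± 0.25 in astrocytes (adjusted p = 1.1e-09 and 1.5e-07). Also higher in traced NSCs was Cdk6 (1.98 ± 0.30), and Ccnd2 was lower (-0.54 ± 0.08). Mycn had group means of 4.58, 4.39 and 3.18 in tdTomato, EYFP and hippocampal NSCs, and passed the filter there mainly through the traced libraries, so no test of it is given. Tissue of origin differed together with tracing, and the 2 cannot be told apart here.

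The genes that act between Smo and the Gli proteins changed little. Of 26 genes for the cilium and the regulation of Smo, 13 rose and 5 fell over all lines, with a median of 0.13 and changes from -0.39 to 0.88. Of 20 genes for Gli phosphorylation and turnover, 8 rose and 7 fell, with a median of 0.02 and changes from -0.83 to 0.86. Over all genes tested 42.1% were higher and 39.8% lower. None of these 46 genes reached a change of 1 over all lines, which 24.7% of all genes tested did with a call. In the hippocampal line Fuz, needed for cilium formation, rose by 1.21 ± 0.05 (SE) and Spop, an adaptor for Gli degradation, by 1.2 ± 0.05. Between origins in NSCs 6 of the 26 and 2 of the 20 genes were called, where 19.4% of all genes were.

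**Figure D4:**
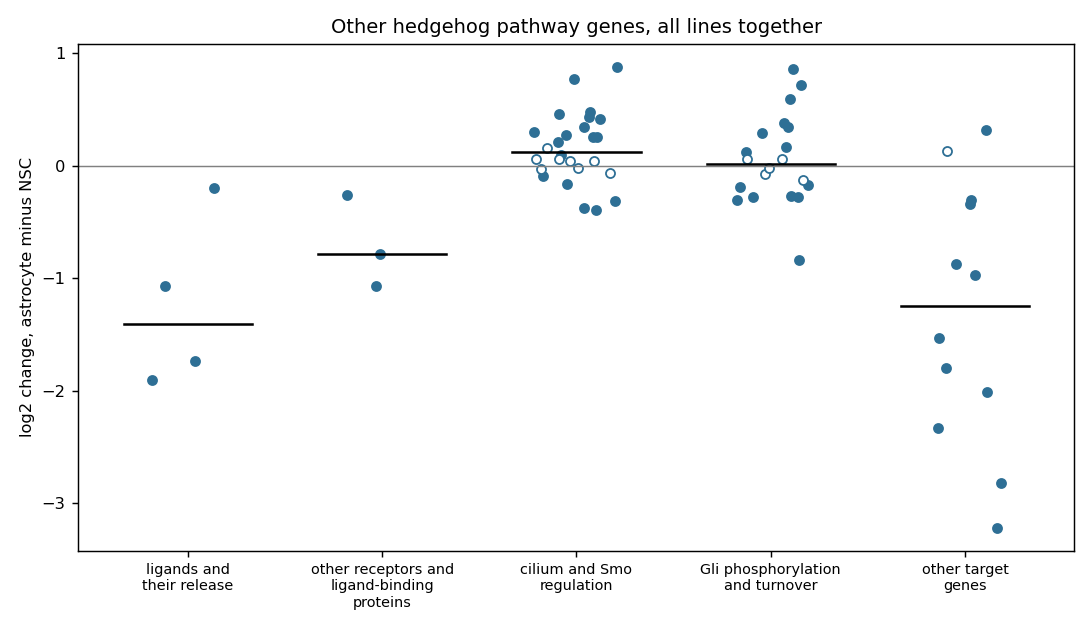
Log2 change from NSC to astrocyte over all lines (y axis) for each tested gene (points) of 5 lists of further pathway genes (x axis), filled where the adjusted p was under 0.05, with a black line at the list's median. The ligand, ligand-binding and target lists have medians of -1.40, -0.78 and -1.25, the first and last with genes that passed the filter through NSC libraries alone, and the cilium and Gli turnover lists have medians of 0.13 and 0.02.

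The 9 genes did not move as one. Over the 18 libraries, which share lines and fates, Hhip ran with Ptch1 (Pearson r = 0.85) and against Boc (r = -0.93), Ptch1 ran against Boc (r = -0.85), and Gli2 ran with Gli3 (r = 0.61) but little with Ptch1 (r = 0.25). Among the 15448 genes that passed the filter, the closest in pattern to Ptch1 were the amino acid transporter genes Slc1a4 (r = 0.98) and Slc6a9 (r = 0.98) and Fam181a (r = 0.97). Closest to Hhip were Fam120a, Ccnd2 and Car8 (r = 0.99, 0.98 and 0.98). No such genes are given for Gli1, whose values lay under the filter. These are descriptions over 18 libraries that share lines and fates.

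The order of the 6 groups differed from gene to gene. Ptch1 was highest in EYFP and hippocampal NSCs, which overlapped, then in tdTomato NSCs and hippocampal astrocytes, which overlapped, and lowest in the traced astrocytes, which overlapped. Hhip was highest in hippocampal NSCs, followed by both traced NSC groups and then by the 3 astrocyte groups, with overlap within these sets. Boc was highest in the traced astrocytes, which overlapped, followed by hippocampal astrocytes, by the traced NSCs, which overlapped, and by hippocampal NSCs. Cdon was highest in a set of overlapping neighbours, tdTomato NSCs, EYFP NSCs and tdTomato astrocytes, followed by EYFP astrocytes, hippocampal NSCs and hippocampal astrocytes without overlap. Gli3 was highest in the traced astrocytes, followed by the NSC groups, each overlapping its neighbour, and lowest in hippocampal astrocytes. For Smo the neighbouring groups overlapped down to hippocampal NSCs, below which lay tdTomato NSCs, and for Sufu EYFP NSCs lay above 5 groups that each overlapped the next.

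Reads could be assigned to these genes with little ambiguity. Of the 75-base stretches of their transcripts 0% were shared with another gene in 8 of the 9, and 0.757% in Smo. Exons of 3 genes overlap a gene on the opposite strand, over 62 and 265 bases in Gli1, 188 bases in Gli3 and 175 bases in Hhip. The partner of Gli3, Gm6556, reached at most 6.29 on the log2 scale, and that of Hhip, Gm27820, lay at -2.07. Per the labels the library kit marks strand, and whether the counting used it was not given in the sources used here.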

How the data were processed

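The 9 genes and the lists of further pathway and marker genes (70 and 54 genes) were chosen with earlier results of these data known. Per the labels, libraries were made with a stranded mRNA kit and sequenced to at least 25 M single-end reads of 76 bases. The authors trimmed reads with Trimmomatic (0.36), aligned them with STAR (2.5.2), estimated gene counts with RSEM (1.3.0) on GRCm38 and normalized them with DESeq2 (1.18.1, R 3.4.3). The deposited values are log2 expression values, 29.4% of them negative, relative to library size. The transform was not named. Their shape is that of a regularized log transform, which draws weakly expressed genes towards their mean and so understates their changes. Counts, and with them the depth behind each value, are unknown, and no counting error is given.

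Groups were taken from the labels. Differences were tested with limma (3.58.1, R 4.3.3) with a variance trend on the values as deposited, with no pseudocount, for genes at 10 or more (linear scale) in at least 3 libraries compared. Adjustment was by Benjamini-Hochberg over all genes tested. The script was tested on simulated data. Comparisons of fates over all lines had the line as a covariate, and differences of changes were tested as interactions over the 18 libraries with 6 group means. Their SE leaves out the spread between the traced lines, which the tests of origin within a fate count. Gene coordinates are from the GENCODE annotation of GRCm38, start sequences from RefSeq (GRCm38.p6). Levels per kilobase are the log2 value minus the log2 of the exonic length. The rule was to name the 9 genes in each comparison that tested them, and every gene of the ligand and ligand-binding lists but 1, which is not reported here. Of the other lists, genes called with a change of at least 1 over all lines or between origins are named, and Fuz and Spop, changed by as much in the hippocampal line, were chosen after their values were seen. Clec9a, Foxl1, Cx3cr1, Cldn5, Tmem212 and Pifo were not analysed here. Alternatives were no filter, a filter at 100, median centring, quantile normalization, pseudocounts of 1 and 10, no variance trend, a replicate block, 6 group means in a single fit, no line term and leaving out each library.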

Additional observations from a re-analysis of the deposited data

Results flagged for a closer look

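The change from NSC to astrocyte differed between the traced lines and the hippocampal line for 5 of the 8 genes tested, by the interaction test in limma, where 46.2% of all genes were called. The difference was -0.45 for Ptch1 (adjusted p = 0.00053), 0.24 for Smo (adjusted p = 0.015), 1.71 for Gli2 (adjusted p = 1.3e-07), 0.74 for Gli3 (adjusted p = 4.3e-07) and 0.72 for Cdon (adjusted p = 1.1e-05). Between the tdTomato and EYFP lines the change differed for 3 of the 8, where 13.3% of all genes were called, by 0.60 for Ptch1 (adjusted p = 0.0012), 1.62 for Gli2 (adjusted p = 4.3e-05) and 0.35 for Gli3 (adjusted p = 0.013). For Gli2 the difference between the traced lines was thus nearly as large as that between the origins, and the 3 lines ran from a rise of 1.09 to a fall of 1.43. In 18 sets of 6 traced libraries (9 genes at 2 fates), no library stood apart from the other 5.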

How the results depend on the processing

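No called difference changed direction under the alternatives run. Differences near 0 without a call did so for Boc and Hhip between the traced lines in NSCs, Sufu between them in astrocytes, Smo in the hippocampal line and between origins in NSCs, Sufu in the interaction with origin, and Cdon and Smo in that with the traced line, and none was called there. With a library left out, 741 of the recomputed values for single genes kept their side of the threshold, 46 lost a call and 5 gained one, and under the other settings 650, 23 and 17 did. Under the filter at 100 Hhip was not tested. The count of genes called between origins in NSCs, 4, was 1 with no filter, 5 with 6 group means in a single fit (Sufu added, adjusted p = 0.036) and 1 to 3 with a library left out, and with any 1 hippocampal NSC library left out Cdon alone was called. That between the traced lines in NSCs, 6, was 4 with no filter or no variance trend, 5 with 6 group means in a single fit and 2 to 5 with a library left out. That between the traced lines in astrocytes, 1, was 2 with median centring, quantile normalization or a pseudocount of 1 or 10, 3 with 6 group means in a single fit and 1 to 2 with a library left out. The pooled fall of Cdon was not called without the line term (-0.54, adjusted p = 0.12). Between lines of the same fate, deviations of libraries with the same replicate number correlated at 0.11 on average (0.012 to 0.31, 18 pairs). With different numbers they did so at -0.05 (-0.35 to 0.12, 36 pairs). Between the fates of a line these averages were -0.02 (-0.076 to 0.034, 9 pairs) and 0.01 (-0.065 to 0.083, 18 pairs). Libraries of a fate with the same number thus shared some deviation, and the main fits do not take it into account. With the replicate block, 5 genes were called between the traced lines in astrocytes in place of 1 (3049 in place of 1641 of all genes), Smo, Gli3, Boc and Cdon besides Gli2 (adjusted p = 0.010, 0.032, 0.013 and 0.014 for the added genes), and calls were lost for Gli2 between origins in NSCs (adjusted p = 0.055) and for Sufu in the tdTomato line (-0.12, adjusted p = 0.067). The block changed no other call of the 9 genes. The unknown depth and the apparent compression at the low end of the scale limit what can be said of Gli1, and of Hhip and Dhh in astrocytes.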
